A study of Mus musculus with 10 samples.

Results

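Solute carriers are membrane proteins that move ions, sugars, amino acids, metals, nucleotides and vitamins across the plasma membrane or the membranes of organelles, and each gene symbol joins Slc to the number of a carrier family. The genes described here are those listed with a symbol of Slc and a digit in the authors' deposited table of genes associated with germanium dioxide (GeO2) in the mouse cochlea. Slc12a2, Slc4a11 and Slc1a3 were left out. This gave 74 genes of 28 families, carried by 89 of the 45037 probe sets of the array. In all, the authors' deposited table names 5488 genes by 1 symbol. The measurements are array signals of cochlear total RNA from male CBA mice, an inbred strain used in hearing research, all 6 months old. The GeO2 group (5 samples) was fed 0.15% GeO2 in the diet for 4 months, and the control group (5 samples) was fed normal chow. Whether each sample came from 1 animal or from several is not stated, and the submitters write that replicates were not done, so the p-values below cover only how far these samples spread, and part of that spread may be technical. The number of arrays limits the precision.

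In the cochlea, transport across epithelia sets the composition of the fluids that bathe the hair cells: the stria vascularis secretes potassium, fibrocytes and supporting cells take it back up, and anion exchangers, bicarbonate cotransporters and potassium-chloride cotransporters hold pH and chloride. Mitochondrial carriers of family 25 link the matrix with the cytosol in every cell. Red cells and their precursors carry a carrier set of their own, led by the anion exchanger Slc4a1, because they exchange bicarbonate for chloride, move urea and import amino acids and iron for haemoglobin.

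Names come only from a table that the authors selected on the same comparison, and all 71 members tested had an unadjusted p under 0.05 in the present fit. The calls below are therefore descriptions of the chosen genes, and their number says nothing about carriers as a class. Probe sets of these genes outside that table are unnamed and not analysed here. Values are the deposited linear signals in units, and changes are differences of log2(signal + 16), GeO2 minus control, from limma fitted to all 27022 probe sets that passed a filter on low signal. A gene is called at a Benjamini-Hochberg adjusted p under 0.05, and where several probe sets of a gene were tested the brightest stands for it. Of 89 member probe sets, 84 passed the filter and 5 did not. The latter included the only probe sets of Slc1a1, Slc14a2 and Slc18a2. Slc1a1, a glutamate carrier, read 179 ± 81.8 units in control and 349.5 ± 65.1 units in GeO2 (SD, n = 5). Slc14a2, a renal urea carrier, read 212 ± 49.8 and 123 ± 57.0 units, and Slc18a2, the vesicular monoamine carrier, 180.1 ± 36.8 and 369 ± 141 units (SD, n = 5). Among the 71 genes tested, 23 were higher in GeO2, 20 were lower and 28 did not pass. Over all probe sets tested 16.3% were called, 8.5% higher and 7.81% lower. Over the 5126 genes named in the authors' table, 1 probe set a gene, 59.3% were called, 29.6% higher and 29.8% lower. The members' share, 60.56%, lies next to the latter. All 25 pairwise comparisons between arrays had 1 sign for 34 members, 18 higher and 16 lower in GeO2. Over all probe sets this share was 12.2%, 6.55% higher and 5.62% lower, and over the table's genes 43.2%, 22.1% higher and 21.1% lower. The median change of the members was 0.24, against −0.23 over the genes of the table and −0.02 over all probe sets. Since 36 members lay above 0 and 35 below, with none between −0.20 and 0.24, the sign of the members' median says nothing of a shift. The median absolute change was 0.53 over the members, 0.51 over the genes of the table and 0.24 over all probe sets. Without GeO2 replicate 5 the count of called members was 28, 13 of them higher, and without control replicate 1 it was 30, 15 of them higher. Of the 43 called members, 27 passed whichever single array was left out, 13 higher and 14 lower.

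**Figure D1:**
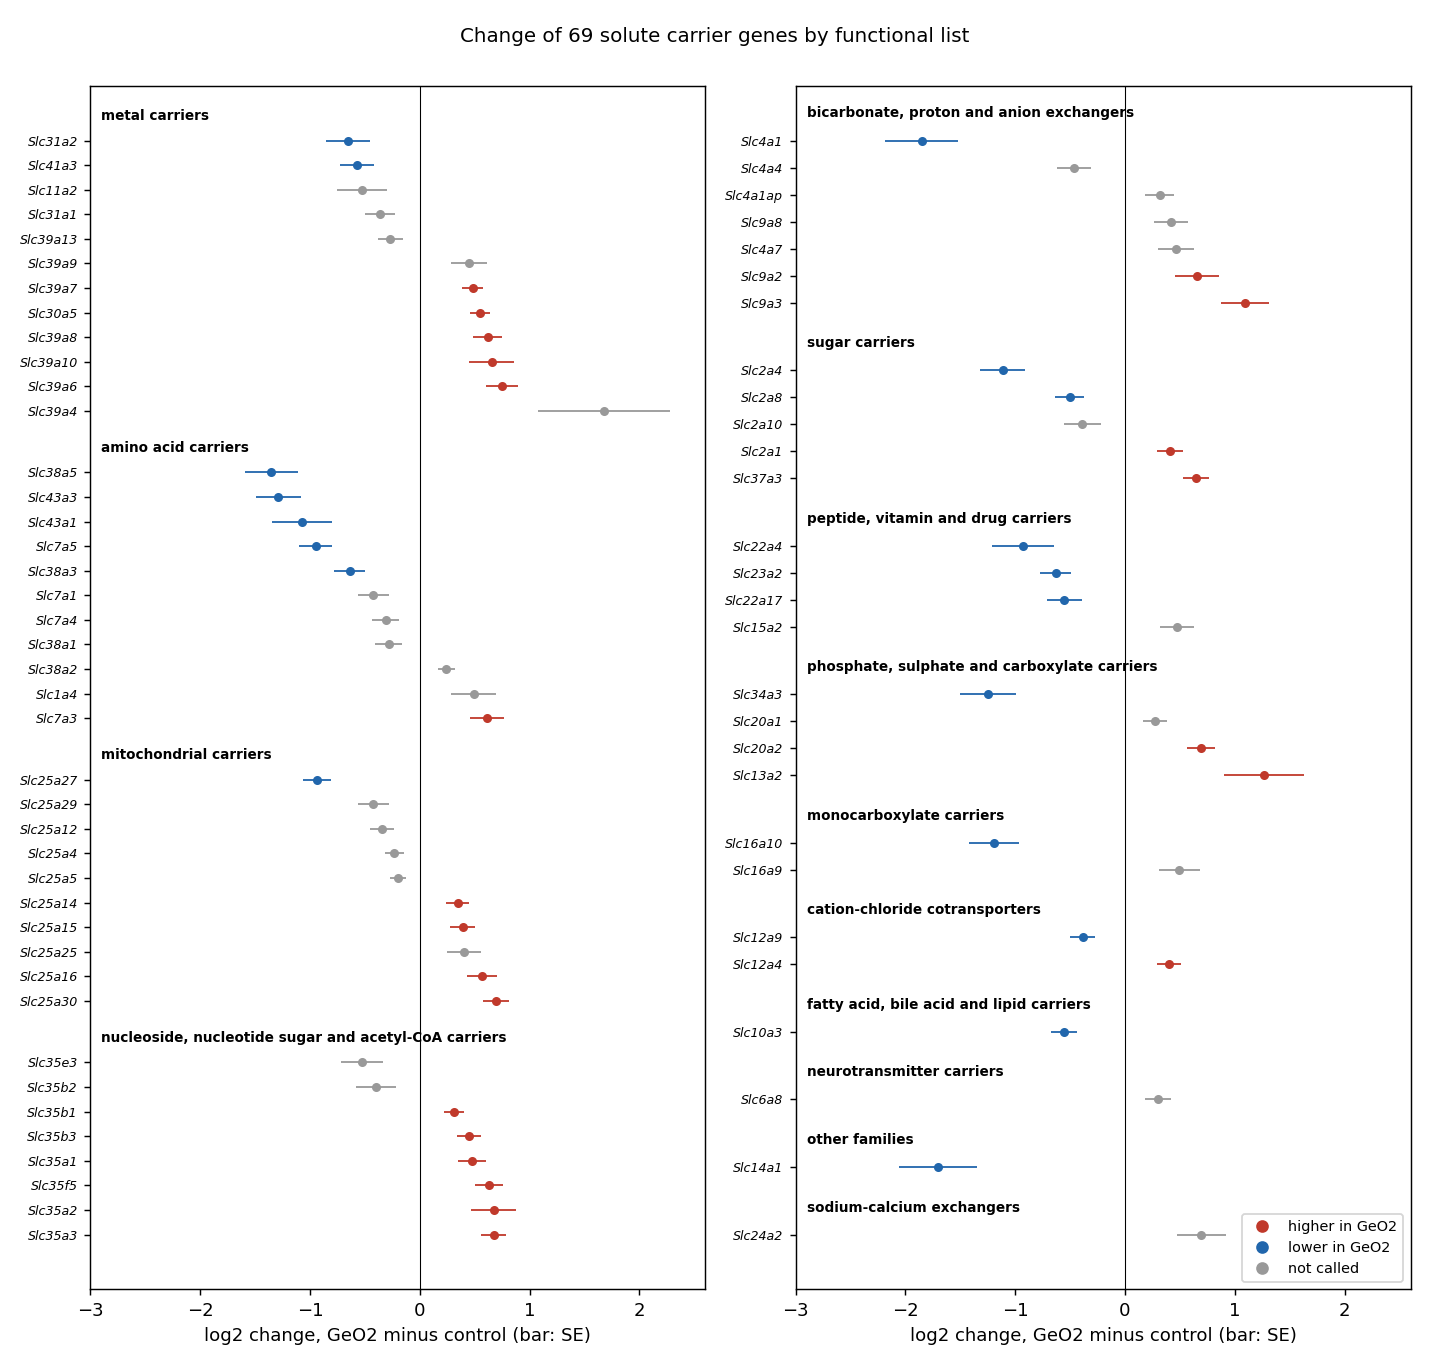
Log2 change, GeO2 minus control, with its standard error, for 69 of the 71 solute carrier genes tested, grouped by functional list (points, 1 per gene; red higher in GeO2, blue lower, grey not past an adjusted p of 0.05; the line at 0 is no change). The 6 called nucleotide sugar carriers and the 5 called zinc carriers (Slc39 and Slc30) all lie to the right, and Slc4a1 at −1.85 lies farthest to the left.

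The lower members included carriers known in erythroid cells, and 4 of the 8 largest falls, Slc4a1, Slc14a1, Slc38a5 and Slc43a1, were of genes on a list of such carriers. The others, Slc43a3, Slc34a3, Slc16a10 and Slc2a4, were not on it. Slc4a1, the chloride-bicarbonate exchanger band 3 of the red cell membrane, read 31622, 31436, 20044, 32456 and 32986 units on control arrays 1 to 5 and 12250.1, 17338, 3646, 5648 and 7909 units on GeO2 arrays 1 to 5. The groups did not overlap, and control array 3 and GeO2 array 2 lay nearest to each other. Its change was −1.85 (SE 0.33, adjusted p = 0.0036), a 3.61-fold fall. The name of this probe set ends in _x_at, a mark for probes that may bind other transcripts. Slc14a1, the urea carrier of red cells, read 932, 1812, 600.3, 1443 and 1242 units on control arrays 1 to 5 and 318, 832, 220.1, 302 and 238 units on GeO2 arrays 1 to 5. Here GeO2 array 2 lay above control array 3, and the other 4 GeO2 arrays lay below every control array. Its change was −1.70 (SE 0.35, adjusted p = 0.00728). Slc38a5, a glutamine carrier known in erythroid precursors, fell 2.55-fold, from 2360.3, 2546, 1577, 2448 and 2049 units on control arrays 1 to 5 to 858, 1422, 474, 751 and 951 units on GeO2 arrays 1 to 5. All 5 GeO2 values were below all 5 controls. The change was −1.35 (SE 0.24, adjusted p = 0.00345). Slc43a1, a carrier of branched-chain and other neutral amino acids, read 1314, 1246, 722, 1567 and 1259.7 units on control arrays 1 to 5 and 720.5, 998, 430.1, 379 and 444 units on GeO2 arrays 1 to 5, with GeO2 array 2 above control array 3 and a change of −1.07 (SE 0.27, adjusted p = 0.018). Slc16a10, not on the list, belongs to the monocarboxylate family but carries aromatic amino acids. It read 2593, 1741, 1339, 2205 and 2575 units on control arrays 1 to 5 and 1362, 1008, 620.5, 718 and 856 units on GeO2 arrays 1 to 5, and its change was −1.19 (SE 0.23, adjusted p = 0.00504). GeO2 array 1 lay just above the lowest control array, which again was array 3.

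Of 13 carriers listed as known in erythroid cells, 8 were measured, 2 of them (Slc25a38 and Slc25a39) under older symbols. Of these 8, 6 were lower, 1 was higher and 1 did not pass, with a median change of −1.22. The higher one was Slc2a1, the glucose carrier GLUT1, at 0.41 (SE 0.12), a call that did not hold without GeO2 array 3 or 5 or control array 1, 2 or 5 (highest adjusted p 0.0731). The list was not limited to carriers of adult mouse red cells. Slc11a2, the divalent metal carrier that serves iron uptake, did not pass (−0.52, SE 0.23, adjusted p = 0.139). Markers of erythroid cells moved in the same arrays: of 30 listed, 24 were measured, 23 were lower and 1 did not pass. Measured means named in the authors' table, selected on the same comparison, and past the signal filter. Markers without a difference could hardly enter, so counts of markers, and scores made from them, are descriptions. Over the table's genes 29.8% were lower. The mean log2 value of the 24 erythroid markers, the erythroid score, ran from 11.84 to 13.10 in control and from 9.63 to 11.78 in GeO2. Control array 3 had the lowest score among controls and GeO2 array 2 the highest among GeO2 arrays. No marker was at 0, since no value of the table is. Markers of dividing cells were lower too, all 19 measured of 20, with scores of 10.73 to 11.88 in control and 9.32 to 10.80 in GeO2. Among the 8 largest falls of members, 6 had control array 3 as the lowest control, 6 had GeO2 array 2 as the highest GeO2 array and 4 had both. Among the other 63 members tested these numbers were 17, 5 and 1. In RNA of a whole organ, fewer cells of a type and less RNA per cell cannot be told apart.

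With the erythroid score as a covariate in the fit, the difference between the groups was 0.09 (SE 0.25) for Slc4a1, 0.08 (SE 0.43) for Slc14a1, −0.14 (SE 0.29) for Slc38a5 and 0.33 (SE 0.31) for Slc43a1. For the others of the 8 largest falls it was −0.92 (SE 0.40) for Slc43a3, −0.45 (SE 0.46) for Slc34a3, −0.19 (SE 0.34) for Slc16a10 and −0.57 (SE 0.38) for Slc2a4. The score did not overlap between the groups, so in that fit score and group can hardly be told apart. A difference that follows the score shrinks there whatever its cause. The median standard error over all probe sets was 0.33 in that fit and 0.17 without the score. With the score, 0 of the 27022 probe sets passed by limma, so that fit gives sizes and no calls, and 22 of the 71 members had an unadjusted p under 0.05.

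**Figure D2:**
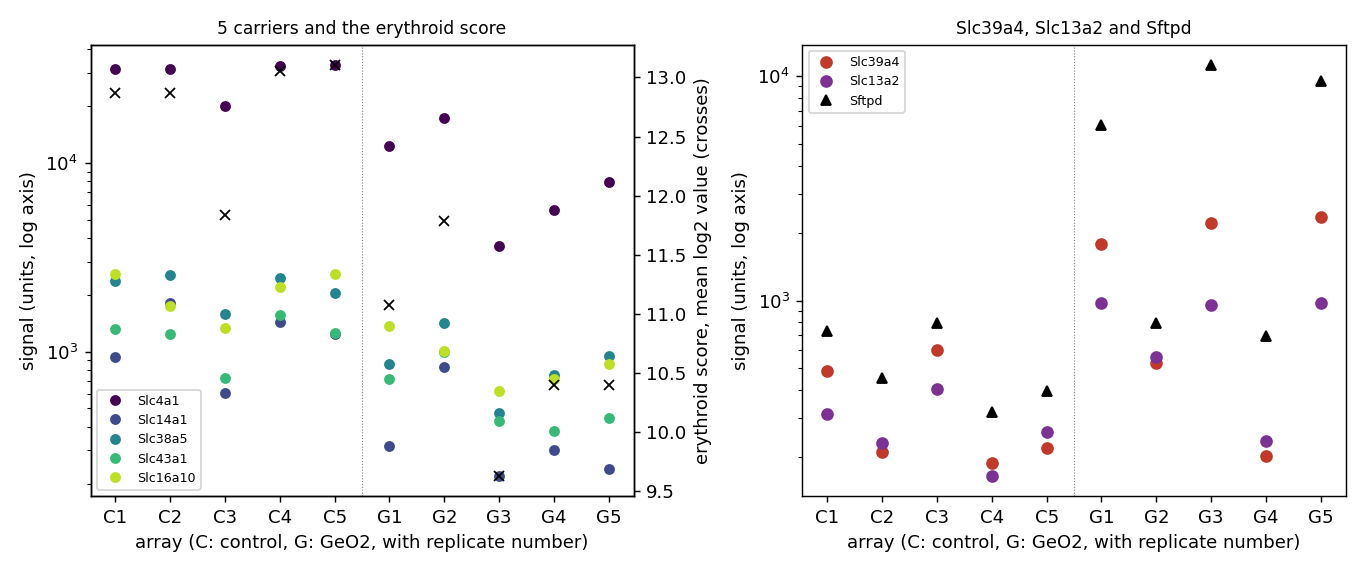
Left, signal on each array (log axis) of the 5 carriers Slc4a1, Slc14a1, Slc38a5, Slc43a1 and Slc16a10 (coloured points) with the erythroid score (crosses, right axis, mean log2 value of 24 markers). The score is 11.84 on control array 3 and 11.78 on GeO2 array 2, the arrays on which Slc4a1 and Slc38a5 come closest between groups. Right, signal on each array (log axis) of Slc39a4, Slc13a2 and Sftpd, all highest on GeO2 arrays 1, 3 and 5.

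Start-site regions of 3 of these lower members are shown because erythroid genes are often controlled near their start by GATA1 and KLF1. RefSeq promoters on GRCm38.p6 were at hand for 54 of the 74 member genes, and for Slc38a5, Slc16a10 and Slc43a1 among the carriers just described. The 250 bases before the start are printed 5′ to 3′ on the gene's strand, and capitals mark matches on either strand to CCNCNCCC, a motif bound by KLF-type factors. The regions are chrX:8271131-8271380, plus strand; chr10:40142255-40142504, minus strand; and chr2:84840073-84840322, plus strand.
Slc38a5: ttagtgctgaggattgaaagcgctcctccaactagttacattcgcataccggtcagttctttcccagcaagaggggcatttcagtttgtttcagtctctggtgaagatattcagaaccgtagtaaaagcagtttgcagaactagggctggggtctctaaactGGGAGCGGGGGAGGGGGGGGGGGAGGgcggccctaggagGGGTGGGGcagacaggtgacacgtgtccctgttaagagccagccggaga
Slc16a10: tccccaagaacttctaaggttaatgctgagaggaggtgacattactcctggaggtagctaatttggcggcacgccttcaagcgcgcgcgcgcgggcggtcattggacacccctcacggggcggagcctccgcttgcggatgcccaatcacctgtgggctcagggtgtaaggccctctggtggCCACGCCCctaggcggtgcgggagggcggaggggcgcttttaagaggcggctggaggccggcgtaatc
Slc43a1: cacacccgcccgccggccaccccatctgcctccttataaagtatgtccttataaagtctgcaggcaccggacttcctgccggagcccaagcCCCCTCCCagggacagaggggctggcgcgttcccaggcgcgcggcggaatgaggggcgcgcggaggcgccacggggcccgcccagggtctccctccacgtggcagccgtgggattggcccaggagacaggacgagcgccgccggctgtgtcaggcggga
Slc38a5 had 9 matches, most of them overlapping in 1 run of G, and Slc16a10 and Slc43a1 had 1 each. None of these windows held TGATAA or AGATAA, the hexamers searched for GATA factors on both strands. Over all 32851 promoters, 45.9% held CCNCNCCC and 16.6% held TGATAA or AGATAA. Of 12 promoters of lower members 6 held the KLF-type motif, and of 27 promoters of higher members 16 (59.3%). Members not called had it in 18 of 28 (64.3%). The counts for the GATA hexamers were 1 of 12 (8.33%), 2 of 27 (7.41%) and 5 of 28 (17.9%).

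Of 11 amino acid carriers tested, 5 were lower, 1 was higher and 5 did not pass (median change −0.42). Slc43a3, grouped here by its family but known in human cells as a carrier of purine nucleobases, read 1406, 1616, 1674, 1816 and 1846 units on control arrays 1 to 5 and 473, 1078, 668, 498 and 794 units on GeO2 arrays 1 to 5. The groups did not overlap, and the change was −1.29 (SE 0.20, adjusted p = 0.00226). Slc7a5, the LAT1 carrier of large neutral amino acids, was lower on every GeO2 array, with 3353, 2772, 2265, 3681 and 2931 units on control arrays 1 to 5 and 1392, 1732, 1802, 1321 and 1442 units on GeO2 arrays 1 to 5. It changed by −0.95 (SE 0.15, adjusted p = 0.00222), a 1.93-fold fall. Slc38a3, a glutamine carrier of system N, read 1173, 1343, 1382, 1255 and 1302 units on control arrays 1 to 5 and 657, 915, 844, 711 and 1038 units on GeO2 arrays 1 to 5. It fell, again without overlap (−0.64, SE 0.14, adjusted p = 0.0104). The higher member was Slc7a3, a carrier of arginine and lysine, which rose from 503 ± 80.5 to 775 ± 95.1 units (SD, n = 5) without overlap (0.61, SE 0.15, adjusted p = 0.018). Its relative Slc7a1 did not pass (−0.42, SE 0.14, adjusted p = 0.0628), although all its GeO2 values lay below the controls. Slc38a1 (−0.28, SE 0.12, adjusted p = 0.125), Slc7a4 (−0.31, SE 0.12, adjusted p = 0.106) and Slc1a4 (0.49, SE 0.21, adjusted p = 0.124) did not pass either. Slc38a2, the brightest amino acid probe set at 28329.7 ± 2078 units in control, had no overlap between groups but a difference of 0.24 (SE 0.08) that did not pass (adjusted p = 0.0566). Among 9 amino acid carriers listed as known targets of the stress factor ATF4, 5 were measured. Of these, Slc7a3 was higher, Slc7a5 was lower, and Slc1a4, Slc38a2 and Slc7a1 did not pass (median change 0.24).

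The called zinc carriers of families 39 and 30 were all higher. Of 8 tested, 5 were higher, none was lower and 3 did not pass (median change 0.58). Over the table's genes 29.6% were higher and 29.8% lower. Slc30a10, of family 30 but listed under an older symbol and no member, did not pass (−0.48, SE 0.17, adjusted p = 0.0678). Family 39 (ZIP) brings zinc into the cytosol and family 30 (ZnT) takes it out, so the higher genes include carriers of both directions. Slc39a6 read 6147, 4205, 7098, 5719.9 and 7068 units on control arrays 1 to 5 and 9281, 10802, 8546, 10045 and 11656 units on GeO2 arrays 1 to 5, without overlap, and rose 1.68-fold (0.75, SE 0.15, adjusted p = 0.00517). Slc30a5, a zinc carrier of the secretory pathway, read 5119, 5015, 5144, 5588 and 6016 units on control arrays 1 to 5 and 7855, 7416, 8016, 7987 and 8007 units on GeO2 arrays 1 to 5. Its lowest GeO2 value stood well above its highest control, and it rose by 0.55 (SE 0.09, adjusted p = 0.00255). Slc39a7, which releases zinc from the endoplasmic reticulum, rose from 5899 ± 455 to 8252 ± 736 units (SD, n = 5), and Slc39a8, which also carries manganese, from 3569 ± 397 to 5524 ± 1007 units (SD, n = 5). Both were separated in all 25 pairwise comparisons, with changes of 0.48 (SE 0.10) and 0.62 (SE 0.13). The probe set of Slc39a7 ends in _s_at, a mark for probes shared with other transcripts. Slc39a10 rose by 0.65 (SE 0.20) from 655, 1119.9, 757, 985 and 1228 units on control arrays 1 to 5 to 1002, 1786, 1442, 1753 and 1480.3 units on GeO2 arrays 1 to 5. GeO2 array 1 lay inside the control range, and the call did not hold without GeO2 array 2, 3, 4 or 5 or control array 1, 3 or 4 (highest adjusted p 0.108). Slc39a9 (0.45, SE 0.17) and Slc39a13 (−0.27, SE 0.11) did not pass, with adjusted p of 0.083 and 0.132, and neither did Slc39a4 (1.68, SE 0.60, adjusted p = 0.0736).

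Of the 4 other metal carriers tested, 2 were lower and 2 did not pass. Slc31a2, a relative of the copper importer, fell from 2812 ± 783 to 1785 ± 474 units (SD, n = 5), a call that did not hold without GeO2 array 2, 3 or 5 or control array 1, 2, 4 or 5 (highest adjusted p 0.105). Slc31a1, the copper importer CTR1, did not pass (−0.36, SE 0.14, adjusted p = 0.0905). Slc41a3, of a family of magnesium carriers, changed by −0.57 (SE 0.15) at its brighter and by −0.83 (SE 0.18) at its dimmer probe set, both without overlap between groups. The call of the brighter one did not hold without GeO2 array 4 or 5 or control array 2 (highest adjusted p 0.0626).

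Family 35 includes carriers that supply the Golgi and endoplasmic reticulum with substrates for glycosylation and sulphation, such as nucleotide sugars. Its called members were all higher. Of 8 tested, 6 were higher, none was lower and 2 did not pass (median change 0.46), with Slc35a2 counted as higher on 1 of its 2 probe sets. Over the table's genes 29.6% were higher and 29.8% lower. Slc35f6 and Slc35e1, listed under older symbols and no members, lay on the lower side and did not pass. They differed by −0.38 (SE 0.13, adjusted p = 0.0658), with all GeO2 values below the controls, and by −0.28 (SE 0.14, adjusted p = 0.184). Slc35a3, the carrier of UDP-N-acetylglucosamine, read 3749.7, 4203, 3422, 4656 and 4155 units on control arrays 1 to 5 and 6253, 6287, 5437, 7337 and 6907 units on GeO2 arrays 1 to 5. The groups did not overlap, and the change was 0.67 (SE 0.12, adjusted p = 0.00314). Slc35f5, whose substrate is not settled, read 1215, 1188, 1182, 1541 and 1591 units on control arrays 1 to 5 and 1906, 1990.4, 2357, 2083 and 2030.1 units on GeO2 arrays 1 to 5. It rose, also without overlap (0.63, SE 0.13, adjusted p = 0.00687). Slc35a1, the CMP-sialic acid carrier, rose by 0.48 (SE 0.13), Slc35b3, a carrier of the sulphate donor PAPS, by 0.45 (SE 0.11), and Slc35b1 by 0.31 (SE 0.09). The call of Slc35a1 did not hold without GeO2 array 5 or control array 1 or 2 (highest adjusted p 0.0623), and that of Slc35b1 did not hold without GeO2 array 2, 3, 4 or 5 or control array 1, 2, 3, 4 or 5 (highest adjusted p 0.109). The members that did not pass were Slc35e3 (−0.53, SE 0.19, adjusted p = 0.0749) and Slc35b2 (−0.40, SE 0.18, adjusted p = 0.156), both on the lower side. Slc35e3 read 3158, 2090.1, 2714, 3306 and 3509 units on control arrays 1 to 5 and 1694, 1935, 1487, 2816 and 2390.4 units on GeO2 arrays 1 to 5, with overlap between the groups. It was called without GeO2 array 4 (adjusted p = 0.0385) or control array 2 (adjusted p = 0.0402).

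Slc35a2, the UDP-galactose carrier, gave opposite directions at its probe sets. Its brighter one read 1998, 1580.4, 2248, 2154 and 2408 units on control arrays 1 to 5 and 3419.5, 2857, 4967, 2083 and 3798 units on GeO2 arrays 1 to 5, with GeO2 array 4 inside the control range. In control it averaged 2078 ± 315 units (SD, n = 5), against 2186 ± 347 units for the other probe set, so it was the brighter one only through the GeO2 arrays. This probe set rose by 0.67 (SE 0.20, adjusted p = 0.0391), and the call did not hold without GeO2 array 1, 3 or 5 or control array 1, 2, 3 or 4 (highest adjusted p 0.0937). The other, whose name ends in _x_at because its probes may bind other transcripts, read 2455, 1721, 2334, 2501 and 1918 units on control arrays 1 to 5 and 2006, 1519, 1790.3, 1582 and 1761 units on GeO2 arrays 1 to 5. The difference was −0.33 (SE 0.14) and did not pass (adjusted p = 0.128). With the mean of both probe sets in place of the brighter one, the difference was 0.17 (adjusted p = 0.497).

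Slc23a2, the vitamin C carrier SVCT2, was the other member with tested probe sets of opposite sign. Its brighter one read 3873, 5627, 4066, 4774 and 4709 units on control arrays 1 to 5 and 2455, 2881, 2644, 3652 and 3239.9 units on GeO2 arrays 1 to 5. All GeO2 values lay below the controls, with a change of −0.63 (SE 0.14, adjusted p = 0.00979). The dimmer probe set read 904, 1017, 1006, 995 and 927 units on control arrays 1 to 5 and 1170.5, 1047, 1488, 1162 and 1129.5 units on GeO2 arrays 1 to 5, with every GeO2 value above every control but a difference of 0.29 (SE 0.13) that did not pass (adjusted p = 0.133). So the groups were separated in opposite directions at the probe sets of 1 gene, and with their mean the difference was −0.17 (adjusted p = 0.359). Of 13 members with more than 1 probe set, 11 had more than 1 tested, and the other 9 of these gave 1 direction. Sizes still differed between probe sets of a gene. Slc4a1 changed by −2.68 (SE 0.51) at its other probe set, where control array 3 (9062 units) lay below GeO2 array 2 (9439 units), and Slc16a10 by −1.72 (SE 0.33). The dimmer probe set of Slc14a1 did not pass (−1.10, SE 0.36, adjusted p = 0.0568). Slc35a3 rose by 1.32 (SE 0.19) at its dimmer probe set, where GeO2 read 934, 1057, 1509.8, 1617 and 1320.2 units and control 474, 363, 475, 572 and 646 units. The dimmer probe set of Slc20a2 did not pass (0.59, SE 0.20, adjusted p = 0.0598).

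**Figure D3:**
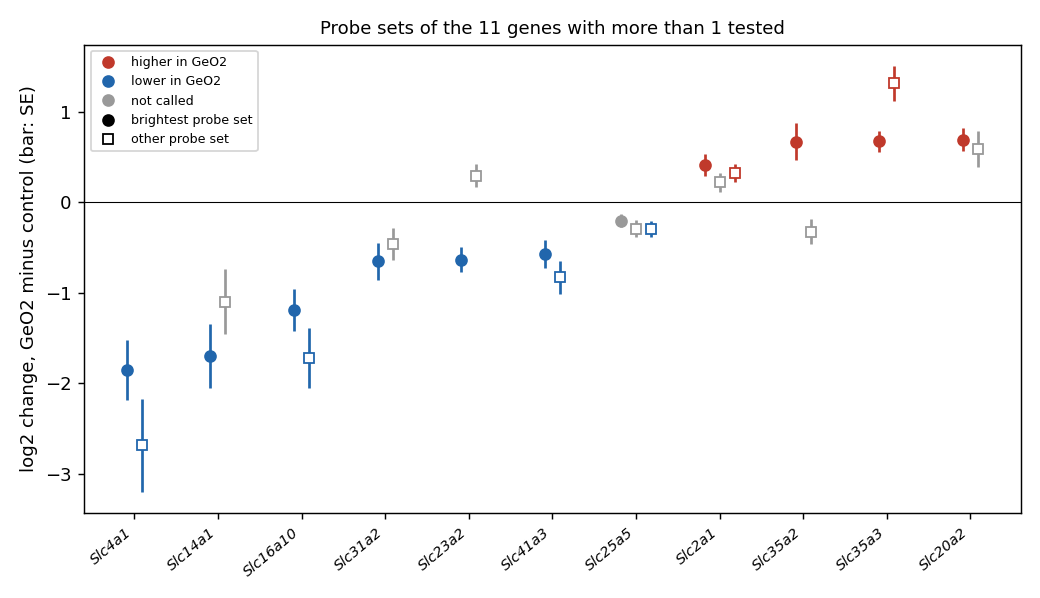
Log2 change, GeO2 minus control, with its standard error, for every tested probe set of the 11 solute carrier genes that had more than 1 (circles, brightest probe set; squares, others; colours as for the plot of all members; the line at 0 is no change). Slc23a2 and Slc35a2 have probe sets on both sides of 0.

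Mitochondrial carriers of family 25 were split. Of 11 tested, 4 were higher, 2 were lower and 5 did not pass (median change −0.20). Slc25a27, the uncoupling protein relative UCP4, read 2004, 1694, 2267, 2040.3 and 2035 units on control arrays 1 to 5 and 1242, 920.3, 1051, 1052 and 942 units on GeO2 arrays 1 to 5. The groups were far apart, and the change of −0.94 (SE 0.13, adjusted p = 0.00106) had the smallest adjusted p of the members. Its second probe set was too dim to be tested, at 143.5 ± 72.4 units in control and 269 ± 85.6 units in GeO2 (SD, n = 5). On the higher side, Slc25a30, a relative of the uncoupling proteins, read 972, 959.8, 792, 932 and 878 units on control arrays 1 to 5 and 1407, 1474, 1662, 1492 and 1332 units on GeO2 arrays 1 to 5, without overlap (0.69, SE 0.12, adjusted p = 0.00303). Slc25a16, a carrier linked to coenzyme A, rose by 0.57 (SE 0.14). Slc25a14, another uncoupling protein relative (UCP5), rose by 0.35 (SE 0.10) and Slc25a15, the ornithine carrier of the urea cycle, by 0.39 (SE 0.12). The call of Slc25a14 did not hold without GeO2 array 2, 3, 4 or 5 or control array 1, 2 or 3 (highest adjusted p 0.0946), and that of Slc25a15 did not hold without GeO2 array 1, 4 or 5 or control array 1, 2 or 3 (highest adjusted p 0.0814).

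The adenine nucleotide translocators, which exchange matrix ATP for cytosolic ADP, were the brightest carriers of this family. Slc25a4 gave 36696 ± 2497 units in control and 31389.7 ± 3778 units in GeO2 (SD, n = 5) and did not pass (−0.23, SE 0.09, adjusted p = 0.0939). The 3 probe sets of Slc25a5 differed by −0.20 (SE 0.07), −0.29 (SE 0.09) and −0.29 (SE 0.08), and the last of these was called (adjusted p = 0.0301) while the brightest was not (adjusted p = 0.0818). Both _x_at probe sets may bind related transcripts. Slc25a12, the aspartate-glutamate carrier, was separated between groups but did not pass (−0.34, SE 0.11, adjusted p = 0.0521). Slc25a29, a carrier of basic amino acids (−0.42, SE 0.14, adjusted p = 0.0546), and Slc25a25, a carrier of ATP-Mg and phosphate (0.40, SE 0.15, adjusted p = 0.0892), did not pass.

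Of 3 sodium-proton exchangers of family 9 tested, 2 were higher and 1 did not pass. Slc9a3, the exchanger NHE3 known from the apical membrane of kidney and gut, read 486, 486, 497, 365 and 492 units on control arrays 1 to 5 and 1604, 699, 695, 1144 and 1143 units on GeO2 arrays 1 to 5. Its GeO2 values were all above the controls, with array 1 the highest, and it rose by 1.09 (SE 0.22, adjusted p = 0.00654). Slc9a2 read 958, 1508, 976, 1399 and 1299.6 units on control arrays 1 to 5 and 1298, 1627, 1931, 2389 and 2622 units on GeO2 arrays 1 to 5, with overlap between the groups. It rose by 0.66 (SE 0.20), and its call did not hold without GeO2 array 3, 4 or 5 or control array 1, 3 or 5 (highest adjusted p 0.107). Slc9a8 did not pass (0.42, SE 0.16, adjusted p = 0.0854). The sodium-bicarbonate cotransporters Slc4a4 (−0.46, SE 0.15, adjusted p = 0.0578) and Slc4a7 (0.47, SE 0.16, adjusted p = 0.0705) did not pass. Slc4a4 read 3489, 2591, 3543, 3275 and 3001 units on control arrays 1 to 5 and 1730.4, 2919, 1962, 2531 and 2505 units on GeO2 arrays 1 to 5. Slc4a7 read 1038, 953, 956, 1059.9 and 868 units on control arrays 1 to 5 and 1446, 1321, 896, 1659 and 1575 units on GeO2 arrays 1 to 5. Only 1 GeO2 array of each, array 2 for Slc4a4 and array 3 for Slc4a7, lay inside the control range. Slc4a4 was called without GeO2 array 2 (adjusted p = 0.0343) or control array 2 (adjusted p = 0.0485), and Slc4a7 without GeO2 array 3 (adjusted p = 0.0088). Slc4a1ap, which matches by symbol but encodes a protein that binds Slc4a1 and is no carrier, did not pass (0.32, SE 0.13, adjusted p = 0.115).

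The cation-chloride cotransporters of family 12 move potassium or sodium together with chloride. Slc12a4, the potassium-chloride cotransporter KCC1, read 1820.1, 1745, 1623, 1791 and 1592 units on control arrays 1 to 5 and 2175, 1999, 2514, 2241 and 2450.3 units on GeO2 arrays 1 to 5. It rose without overlap (0.40, SE 0.11, adjusted p = 0.0263), and its call did not hold without GeO2 array 5 or control array 3 or 5 (highest adjusted p 0.0712). Slc12a9, a member without a settled substrate, read 1454, 1346, 1188, 1216 and 1239 units on control arrays 1 to 5 and 1025, 988, 954, 1008 and 934 units on GeO2 arrays 1 to 5. It fell, again without overlap (−0.38, SE 0.11, adjusted p = 0.0357), a call that did not hold without GeO2 array 2, 3, 4 or 5 or control array 1, 2 or 5 (highest adjusted p 0.0965). Of 24 carriers listed for a known role in hearing or the inner ear, 4 were named in the authors' table and tested. Among them were Slc4a7, Slc22a4 and, under the older symbol Matp, the melanocyte carrier Slc45a2. The array may still carry probe sets of the others, unnamed in that table or too dim. Of the 4 tested, 1 was lower and 3 did not pass (median change −0.34). Of the listed markers of cochlear cell types only a minority were measured, among them 1 of 12 for hair cells. They too were named from the table selected on the same comparison, so separated scores describe the chosen markers and not the cell types. The mean log2 value of 4 measured of 10 strial marginal cell markers was 11.60 to 12.04 in control and 9.60 to 10.92 in GeO2, and that of 3 of 11 supporting cell and tectorial membrane markers 11.56 to 11.82 and 12.18 to 12.85. Spiral ligament and limbus markers (4 of 10 measured) gave 13.68 to 14.20 and 13.17 to 13.63. Of these, 3 were lower and Gjb6 did not pass (0.20, SE 0.08, adjusted p = 0.116). Markers of strial intermediate cells and melanocytes (3 of 10 measured, all lower) gave 11.92 to 12.38 and 10.998 to 11.95. Their part in these carrier values was not tested. Slc45a2 did not pass (−0.44, SE 0.16, adjusted p = 0.0779). The lower one, Slc22a4, a carrier of ergothioneine, read 774, 694, 801, 1253 and 817 units on control arrays 1 to 5 and 452, 667, 427, 199.8 and 612 units on GeO2 arrays 1 to 5. Every GeO2 value was below the controls, control array 4 stood high, and the change was −0.93 (SE 0.28, adjusted p = 0.0387). Its call did not hold without GeO2 array 1, 3 or 4 or control array 1, 2, 3, 4 or 5 (highest adjusted p 0.0846).

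Sugar carriers went both ways, with 2 higher, 2 lower and 1 not passing of 5 tested (median −0.39). Slc2a4, the insulin-responsive carrier GLUT4 of muscle and fat, read 1052, 1320.1, 1244, 1832 and 1183 units on control arrays 1 to 5 and 510.1, 942, 551, 462 and 596 units on GeO2 arrays 1 to 5. The groups did not overlap, and it fell 2.17-fold (−1.11, SE 0.20, adjusted p = 0.00367). Of 14 listed markers of skeletal muscle only Cox7a1 and Cox8b, named in the authors' table selected on the same comparison, were measured. Both were called lower, with scores of 10.10 to 11.61 in control and 9.44 to 10.24 in GeO2. Their part in the fall of Slc2a4 was not tested. Slc2a8, an intracellular hexose carrier, read 1492, 1581, 1647, 1350.1 and 1492 units on control arrays 1 to 5 and 1259.6, 1067, 1134, 1068 and 817 units on GeO2 arrays 1 to 5. It fell without overlap (−0.50, SE 0.13, adjusted p = 0.023), a call that did not hold without GeO2 array 5 or control array 1, 2 or 3 (highest adjusted p 0.0586). Slc2a1, the GLUT1 carrier of blood vessels, read 11503, 10903, 12149, 12737 and 10696 units on control arrays 1 to 5 and 20689.5, 12850.3, 15507, 14056 and 14884 units on GeO2 arrays 1 to 5 at its brightest probe set. All GeO2 values were above the controls there. At its other probe sets Slc2a1 changed by 0.32 (SE 0.10, adjusted p = 0.0428), without overlap, and by 0.22 (SE 0.11, adjusted p = 0.176), with overlap and no call. With the mean of its probe sets the call did not hold. Slc37a3, of the sugar phosphate exchanger family and known in human cells for the lysosomal release of bisphosphonates, read 1444, 1487, 1330.3, 1655 and 1714 units on control arrays 1 to 5 and 2395, 2046, 2380.0, 2702 and 2482 units on GeO2 arrays 1 to 5. It rose without overlap (0.65, SE 0.12, adjusted p = 0.00411). Slc2a10 did not pass (−0.39, SE 0.17, adjusted p = 0.136).

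Among phosphate and carboxylate carriers, Slc20a2, the phosphate importer PiT-2, read 4262, 4962, 4468, 4497 and 4864 units on control arrays 1 to 5 and 5695, 7625, 9239, 7039 and 8098 units on GeO2 arrays 1 to 5. It rose without overlap (0.69, SE 0.13, adjusted p = 0.00367), whereas its relative Slc20a1 did not pass (0.27, SE 0.11, adjusted p = 0.109), with 10477, 9872, 8665, 11237 and 12703 units on control arrays 1 to 5 and 11019.8, 13409, 12898, 12528 and 13819 units on GeO2 arrays 1 to 5. Slc34a3, a phosphate carrier best known from the kidney, read 830.3, 841, 341, 663 and 632 units on control arrays 1 to 5 and 362, 238, 185, 306 and 226 units on GeO2 arrays 1 to 5. Control array 3 was the lowest control and lay below GeO2 array 1, and the change was −1.25 (SE 0.26, adjusted p = 0.007). All its signals were at 841 units or below, so it was among the dimmer members. Slc10a3, of the bile acid carrier family but without a settled substrate, read 1391, 1370.5, 1188, 1223 and 1192 units on control arrays 1 to 5 and 878, 747, 903, 900.2 and 876 units on GeO2 arrays 1 to 5. It fell without overlap (−0.56, SE 0.12, adjusted p = 0.00823).

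The remaining members are carriers of drugs, peptides, creatine, calcium and monocarboxylates. Of 4 peptide, vitamin and drug carriers tested, Slc22a4, Slc23a2 and Slc22a17 were lower and 1 did not pass. Slc22a17, described as a receptor of the lipocalin Lcn2, fell from 9337 ± 1540.0 to 6423 ± 1541 units (SD, n = 5), with 1 GeO2 array inside the control range (−0.55, SE 0.16, adjusted p = 0.0331). Its call did not hold without GeO2 array 1, 2, 4 or 5 or control array 1, 3 or 5 (highest adjusted p 0.0847). Lcn2 itself rose by 3.60 (SE 0.61). Slc15a2, the peptide carrier PEPT2, did not pass (0.47, SE 0.16, adjusted p = 0.0565). Slc6a8, the creatine carrier, read 6141, 8334, 8049.5, 6272 and 6613 units on control arrays 1 to 5 and 8512, 7407, 10217, 9214 and 8152 units on GeO2 arrays 1 to 5, with overlap and no call (0.30, SE 0.12, adjusted p = 0.112). Slc24a2, a potassium-dependent sodium-calcium exchanger, missed the threshold narrowly (0.69, SE 0.22, adjusted p = 0.0503), with 443, 464, 362, 512 and 624 units on control arrays 1 to 5 and 450.2, 843, 739, 988 and 1008 units on GeO2 arrays 1 to 5. Slc16a9 did not pass (0.49, SE 0.19, adjusted p = 0.0915), with 2507, 2130.3, 1544, 2236 and 1846 units on control arrays 1 to 5 and 3546, 2876, 1901, 3711 and 2644 units on GeO2 arrays 1 to 5. In these, GeO2 array 1 (Slc24a2) or array 3 (Slc16a9) fell inside the control range. Slc24a2 was called without GeO2 array 1 (adjusted p = 0.00713) or control array 5 (adjusted p = 0.0442), and Slc16a9 without GeO2 array 3 (adjusted p = 0.0228).

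**Figure D4:**
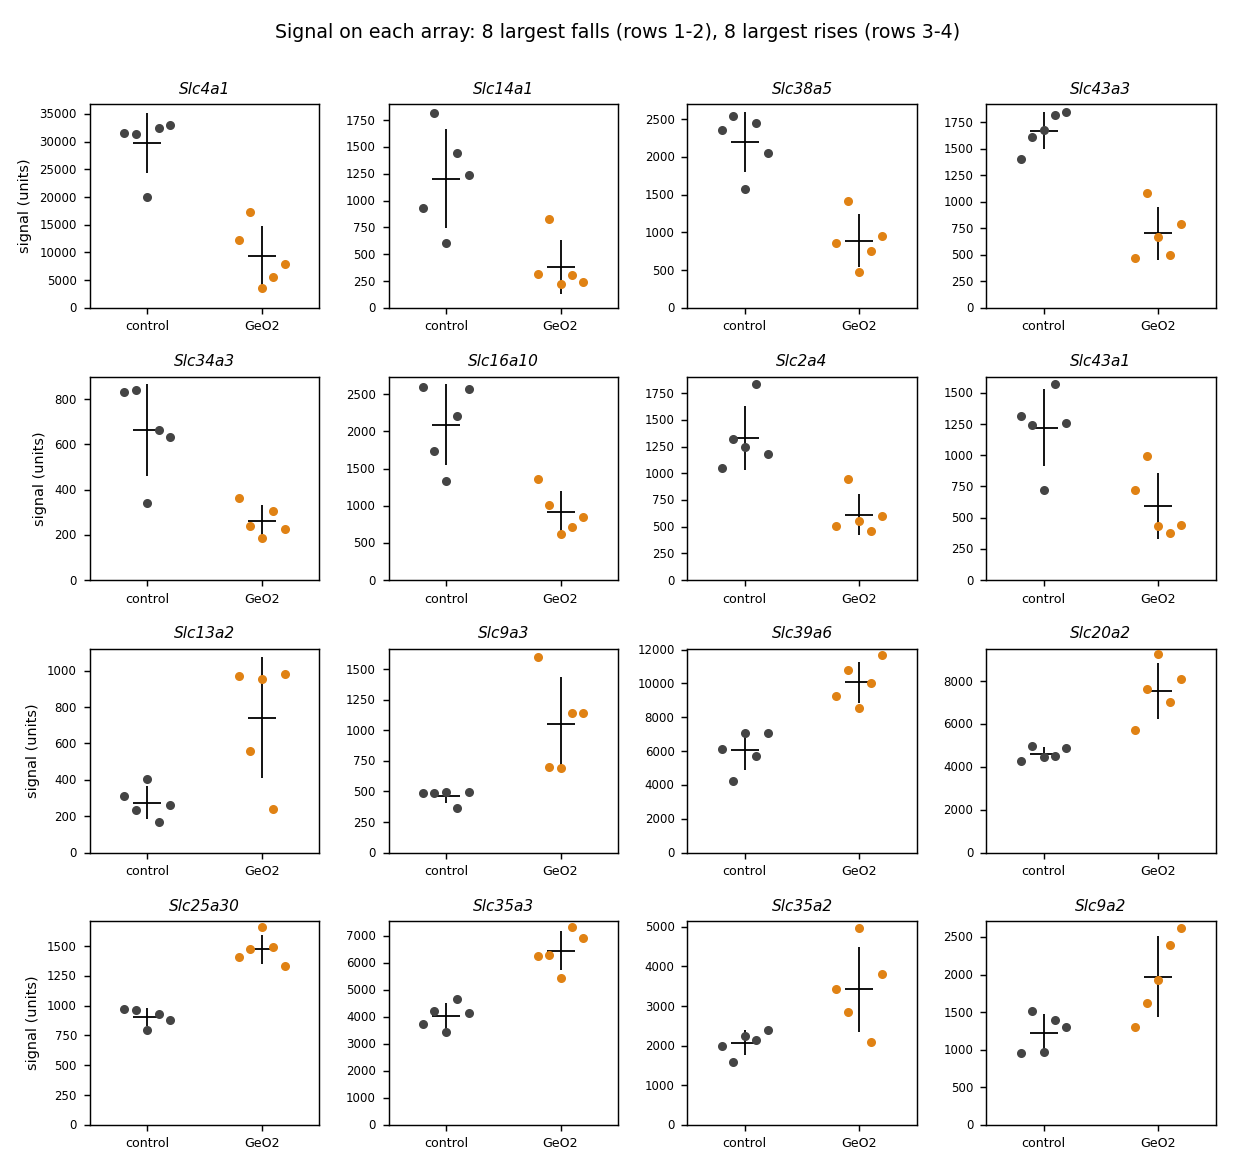
Signal in units on each array (points) for the 8 members with the largest falls and the 8 with the largest rises among those called, control in grey and GeO2 in orange, with the group mean and SD (bars, n = 5); each axis starts at 0. Slc38a5, Slc43a3 and Slc2a4 show no overlap between groups, and Slc13a2 has 1 GeO2 array at 238 units, inside the control range.

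Slc39a4 and Slc13a2 varied widely among the GeO2 arrays. Slc39a4, the zinc importer of the intestine, had a larger positive difference than any other member, 1.68 (SE 0.60), and did not pass (adjusted p = 0.0736). It read 483, 211, 600.0, 189.8 and 221 units on control arrays 1 to 5 and 1784, 525, 2227, 204 and 2356 units on GeO2 arrays 1 to 5. GeO2 arrays 1, 3 and 5 stood at 1784 units or more, and arrays 2 and 4 within the control range. It was called without GeO2 array 4 (adjusted p = 0.0106). Slc13a2, a citrate and succinate carrier of kidney and gut, read 311, 232, 404, 166 and 261 units on control arrays 1 to 5 and 971, 559, 955, 238 and 980.5 units on GeO2 arrays 1 to 5. The same 3 arrays were the highest and array 4 lay within the control range, and the gene rose by 1.27 (SE 0.36, adjusted p = 0.0309). That call did not hold without GeO2 array 1, 3 or 5 or control array 1, 2, 4 or 5 (highest adjusted p 0.0801). Sftpd, a secreted collectin of lung and other epithelia that is no carrier and was chosen after its values were seen, read 731, 450.5, 796, 320.1 and 397 units on control arrays 1 to 5 and 6088, 792, 11200.3, 696 and 9538 units on GeO2 arrays 1 to 5. It was high on the same 3 GeO2 arrays. The neutrophil score, from the 2 measured of 14 listed markers (Lcn2 and Cd177), was 11.69, 12.77 and 13.22 on GeO2 arrays 1, 3 and 5 and 11.42 and 9.64 on arrays 2 and 4, against 7.94 to 9.55 in control. The macrophage score, from 2 of 14 listed markers (Clec4n and Msr1), was 10.25, 10.92 and 11.64 on the former and 9.47 and 9.12 on the latter, against 8.31 to 8.77 in control. Both scores rest on markers named from the table selected on the same comparison, and the part of these cells in the carrier signals was not tested.

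Further carriers stand in the authors' deposited table under older names and are no members by symbol. RefSeq synonyms gave 28 such genes, of which 27 were tested: 7 were higher, 10 lower and 10 not called. Over all genes of that table, 59.3% were called, 29.6% higher and 29.8% lower, so these counts only describe selected genes. Slc25a39, the mitochondrial glutathione carrier listed as D11Ertd333e, read 30683, 25432, 27249, 25794 and 25823 units on control arrays 1 to 5 and 13323, 10795, 12112, 10139 and 11090.2 units on GeO2 arrays 1 to 5 and fell by 1.23 (SE 0.09). Slc25a38, the mitochondrial glycine carrier needed for haem synthesis in erythroid cells, fell by 1.21 (SE 0.21). Slc48a1, a haem carrier of lysosomes, read 6917, 7215, 6088, 3821 and 6754 units on control arrays 1 to 5 and 3406, 3796, 2449, 2983 and 2552 units on GeO2 arrays 1 to 5, lower on every GeO2 array (adjusted p = 0.00374). Slc25a51, the mitochondrial NAD carrier, fell by 1.23 (SE 0.25). On the higher side, Slc5a3, the myo-inositol cotransporter, rose by 1.41 (SE 0.31), and Slc9a7, an exchanger of the trans-Golgi network, by 0.64 (SE 0.17). Among 14 listed inner-membrane carrier proteins without an Slc symbol, 6 were measured. Of these, 4 were lower, none was higher and 2 did not pass (median change −0.53). All 6 were named from the same selected table, in which 29.8% of genes were lower. The lower ones included both subunits of the mitochondrial pyruvate carrier, Mpc1 at −0.48 (SE 0.13) and Mpc2 at −0.55 (SE 0.11), and Ucp2 at −1.21 (SE 0.21). Of 10 partner proteins listed, 2 were measured: Emb, embigin, which escorts monocarboxylate carriers to the membrane, was higher at 0.85 (SE 0.12), and Pdzk1ip1 was lower at −0.95 (SE 0.18).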

How the data were processed

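Cochlear RNA of 10 samples was measured on 1 Affymetrix array each. The deposited values are linear intensities per probe set, made with GCOS 1.3 per the submitters' processing notes. The 2% trimmed mean was 1495.6 to 1496.5 on every array, as scaling to 1 mean gives, and median signals ran from 447 to 508 units. The authors' deposited table of p-values and signed fold scores served for names only. Groups and replicate numbers come from the sample titles.

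From the deposited signals, log2(signal + 16) was computed, the lowest 40% of probe sets by mean were left out (18015, leaving 27022), and the groups were compared in limma 3.58.1 (R 4.3.3; lmFit, then eBayes with an intensity trend; two-sided), with Benjamini-Hochberg adjustment over the 27022 probe sets. A fold is taken back from the log2 difference and understates the change of dim probe sets. Results of 2 tested members are not reported here. All 74 member symbols were current in RefSeq (GRCm38.p6). Sources used here give no scan or hybridisation batches.

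The members, gene lists and alternatives were chosen with earlier results of these data known. Values on each array are given for the 8 largest rises and 8 largest falls called. They are also given for up to 2 further members of each functional list by size of change. Members whose tested probe sets differ in sign are included as well. The other members are named with their change. A listed gene counts as measured where a probe set named for it in the table passed the filter. Others may still have probe sets on the array. Arrays correlated at 0.91 to 0.97, and none were identical. Alternatives were quantile normalization, a shift to 1 median, offsets of 1 and 64, no filter or a 60% filter, a replicate block, array weights, leaving out each array, the mean of a gene's probe sets, the erythroid score as a covariate, and a pooled-variance test on linear intensities.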

Additional observations from a re-analysis of the deposited data

Results flagged for a closer look

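Dixon's gap test on log2 values, run on each group of 5 arrays for the 37 genes picked for values (74 groups), found 5 arrays far from the rest of their group; chance gives about 1 in 20 groups. In control, the lowest array of Slc4a1 was array 3 (gap over range 0.90), the array with the lowest erythroid score among controls. The lowest control array of Slc9a3 was array 4, at 365 units against 486 to 497 on the others (0.93). The highest control array of Slc22a4 was array 4, at 1253 units (0.73). In GeO2, the highest array of Slc14a1 was array 2, at 832 units (0.73), and the lowest of Slc10a3 was array 2, at 747 units (0.84).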

How the results depend on the processing

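Among the 37 genes picked for values, every direction held, where measured, under every alternative except the erythroid covariate, under which Slc14a1 (0.0812), Slc43a1 (0.3295), Slc4a1 (0.0855) and Slc6a8 (−0.1294) changed sign. The count of called members was 38 to 46 under both scalings and offsets, 33 with no filter, 43 with the 60% filter, 56 with array weights and 38 with the mean of a gene's probe sets. It was 24 in the pooled-variance test (13 higher, 11 lower) over all 45037 probe sets. With the erythroid covariate it was 0 (0 higher, 0 lower) by limma, with 22 members at an unadjusted p under 0.05 and 24 called by the pooled-variance test without the covariate. Leaving out 1 array gave 28 to 44 called members, 13 to 23 higher and 15 to 21 lower. Same-numbered arrays of the groups correlated at −0.05 to 0.17 in their deviations. Pairs with different numbers were not correlated for comparison, so whether same-numbered arrays share a batch was not decided. With the replicate block the count was 45 (25 higher, 20 lower), and the median standard error over all probe sets was 0.16, against 0.17 without it. No scaling moved the median change of all probe sets by over 0.1. Among the called genes of these 37, the call was lost with no filter by 6, with the mean of a gene's probe sets by 4, with the shift to 1 median by 1, with the replicate block by 3 and in the pooled-variance test by 11. Uncalled genes of the 37 were called with the replicate block (Slc39a4, Slc16a9, Slc24a2 and Slc35e3, adjusted p 0.0191 to 0.0423), array weights (Slc24a2 and Slc4a7, 0.0106 and 0.0168), the offset of 64 (Slc24a2, 0.0493) and the 60% filter (Slc4a4, 0.0468). Signal over background is unknown, since detection calls were not analysed here.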

Other observations

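Genes named for the ABC transporter superfamily, many of which move lipids, drugs or peptides with ATP, were described by no comparison above. They were taken by symbol. Counted among them are Abcf1 (−0.68, SE 0.11, lower), Abcf2 (0.47, SE 0.15, higher) and Abcf3 (0.64, SE 0.13, higher), of a subfamily not known to transport. All 14 with a name in the authors' deposited table were tested: 7 were higher, 4 lower and 3 not called, with a median change of 0.30. Over the table's genes 29.6% were higher and 29.8% lower. Abca3, a phospholipid carrier of lamellar bodies, changed by 0.94 (SE 0.15) and Abcc5, an exporter of cyclic nucleotides, by 1.04 (SE 0.17), both higher. Abcb10, a mitochondrial protein needed for haem synthesis in erythroid cells, changed by −1.82 (SE 0.27), and Abcb4, the phosphatidylcholine exporter best known from liver, by −1.19 (SE 0.24), both lower. The 3 organic anion transporting polypeptides measured did not pass: Slco1b2 differed by −0.48 (SE 0.20), Slco3a1 by −0.40 (SE 0.14) and Slco4a1 by 0.43 (SE 0.16).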
